A study of Mus musculus with 4 samples.

Results

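Actin filaments and the myosin that pulls on them are built in every cell from general isoforms, and smooth muscle cells and activated fibroblasts add their own isoforms of actin, myosin light chain, calponin and transgelin. Serum response factor, SRF, is a DNA-binding protein that recognises a promoter element called the CArG box. Its partners of the MRTF family are held in the cytoplasm by free actin monomers and enter the nucleus when monomers are taken up into filaments, whereas its partners of the ternary complex factor family, TCF, are switched on by ERK. Many contractile and cytoskeletal genes are targets of SRF with MRTF, and many immediate-early genes are targets of SRF with TCF.

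The genes described here are 42 genes of the smooth muscle and actin cytoskeleton, with SRF and its cofactors, among 34816 gene or transcript names on the array. They were chosen by name and function, through 73 probes among 55670 with values. The cells were NIH3T3, an immortalised mouse embryonic fibroblast line, carrying either a deletion mutant of EGFR or wild-type EGFR, a receptor tyrosine kinase upstream of RAS and ERK. Each group had 2 arrays, and the cells were at steady state with no treatment given. The labels state neither which part of the receptor is deleted, nor its species, nor the promoter that drives it, nor whether a line is 1 clone. The cDNA was prepared independently for the arrays of a group, but separate cultures are not mentioned, so each p-value reflects array-to-array spread, possibly technical.

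A single slide, scanned once, held all 4 arrays, the deletion-mutant arrays in a different column from the wild-type arrays, so slide column and genotype cannot be told apart. Probes well above background made up 42.9% to 43.8% of probes on deletion-mutant arrays and 45.3% to 46.9% on wild-type arrays, and no spot was saturated. A level below is the log2 signal relative to the 75th percentile of its own array, and a log2 fold change is the deletion-mutant mean minus the wild-type mean. Where each probe lies in its transcript was not analysed here. Levels come from different probes, so they are compared between groups and not between genes. In RNA of whole cultures, fewer cells of a kind and less RNA per cell cannot be told apart. All 7 fibroblast markers checked were detected in both groups, with a summed signal of 449244 to 466392 intensity units in deletion-mutant and 609473 to 628014 in wild-type cells. Of these, Col1a1 (-1.24), Pdgfrb (-1.08), Col1a2 (-0.90), Thy1 (-0.79) and Fn1 (-0.70) were lower in log2 fold change and Vim (0.23) was higher. Of 6 markers that define smooth muscle, Myh11, Lmod1, Des and the SRF cofactor Myocd were not well above background on any array. Smtn was detected on all 4 arrays, at 5840 and 6468 intensity units in deletion-mutant and 5029 and 5657 in wild-type cells, and Cnn1 on both wild-type arrays alone. The adipocyte marker Fabp4 was detected in wild-type cells alone (at least 2.62-fold lower in deletion-mutant cells) and the keratin Krt8 in deletion-mutant cells alone (at least 2.79-fold higher). The other markers of striated muscle, epithelium, endothelium and leukocytes were either not well above background on both arrays of any group or, for Tnni2, Pecam1 and Cd68, within 0.40 (log2) between groups. Summed signals in deletion-mutant against wild-type cells were 6247 to 6430 against 5197 to 5504 for the smooth muscle markers, nearly all of it from Smtn. For 5 of striated muscle the sums were 170 to 180 against 144 to 183, and for 4 of epithelium 109 to 123 against 38 to 52.2. They were 95.7 to 104 against 116 to 121 for 2 of endothelium, 225 to 253 against 254 to 255 for 2 of leukocytes and 22.6 to 30.7 against 87.7 to 98.1 for 2 of adipocytes. The part of any of these in the results below was not tested.

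The promoters were searched for the element through which SRF binds. A CArG box is 2 C, then 6 bases that are each A or T, then 2 G, and it reads the same on both strands. RefSeq promoter windows of 250 bases before and 50 after an annotated start (GRCm38.p6) were at hand for 37 of the 42 genes, and 10 of these (27%) held a box, against 1.81% of the 27025 genes with a window. Boxes with at most 1 base off were present in 19 of the 37 (51.4%) and in 23.8% of all genes. Since the genes were partly chosen as SRF targets, these shares are a description of the list. In the sequences below, read 5' to 3' in the direction of the gene with up to 25 bases on each side, capitals mark boxes with at most 1 base off. The first 3 are the promoters of the genes with the largest measured falls, with every box before the start.
Acta2: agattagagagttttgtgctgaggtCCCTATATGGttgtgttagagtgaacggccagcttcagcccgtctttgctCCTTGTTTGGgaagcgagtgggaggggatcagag
Myl9: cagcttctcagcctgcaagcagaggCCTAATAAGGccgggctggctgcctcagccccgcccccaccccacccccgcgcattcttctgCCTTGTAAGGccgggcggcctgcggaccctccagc
Acta1: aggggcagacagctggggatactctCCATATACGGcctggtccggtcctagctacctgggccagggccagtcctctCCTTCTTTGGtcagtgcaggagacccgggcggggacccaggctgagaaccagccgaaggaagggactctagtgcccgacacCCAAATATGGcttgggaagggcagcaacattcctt
These stretches lie at chr19:34255374-34255482, minus strand (Acta2), chr2:156775278-156775399, plus strand (Myl9) and chr8:123894814-123895005, minus strand (Acta1). Acta2 has no exact box here but 2 with 1 base off, Myl9 has 1 of each kind, and Acta1 has 1 exact box and 2 with 1 base off.

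The next group is shown because these genes hold an exact box as well, yet were little changed or not detected.
Cnn2: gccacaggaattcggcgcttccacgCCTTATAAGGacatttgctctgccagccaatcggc
Myl6: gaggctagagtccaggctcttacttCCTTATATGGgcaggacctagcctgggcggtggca
Vcl: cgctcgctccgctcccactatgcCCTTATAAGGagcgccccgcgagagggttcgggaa
Actg1: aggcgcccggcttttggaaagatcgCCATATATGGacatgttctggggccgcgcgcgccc
Srf: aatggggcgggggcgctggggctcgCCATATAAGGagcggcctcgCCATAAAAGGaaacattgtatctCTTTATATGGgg
Fhl2, upstream start: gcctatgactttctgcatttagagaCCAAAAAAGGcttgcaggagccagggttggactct
Fhl2, downstream start: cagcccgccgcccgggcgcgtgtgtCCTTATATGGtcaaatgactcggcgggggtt
Actc1: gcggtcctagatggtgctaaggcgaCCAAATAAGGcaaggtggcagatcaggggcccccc
Fhl1: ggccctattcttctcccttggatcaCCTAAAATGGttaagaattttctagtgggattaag
They lie at chr10:79988519-79988578, plus strand (Cnn2), chr10:128493025-128493084, minus strand (Myl6), chr14:20929148-20929205, plus strand (Vcl), chr11:120348551-120348610, minus strand (Actg1), chr17:46556190-46556269, minus strand (Srf), chr1:43196823-43196882, minus strand and chr1:43163962-43164017, minus strand (Fhl2), chr2:114052888-114052947, minus strand (Actc1) and chrX:56779556-56779615, plus strand (Fhl1). Srf, whose own promoter has 2 exact boxes and 1 with a base off, is a known target of its own product.

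**Figure D1:**
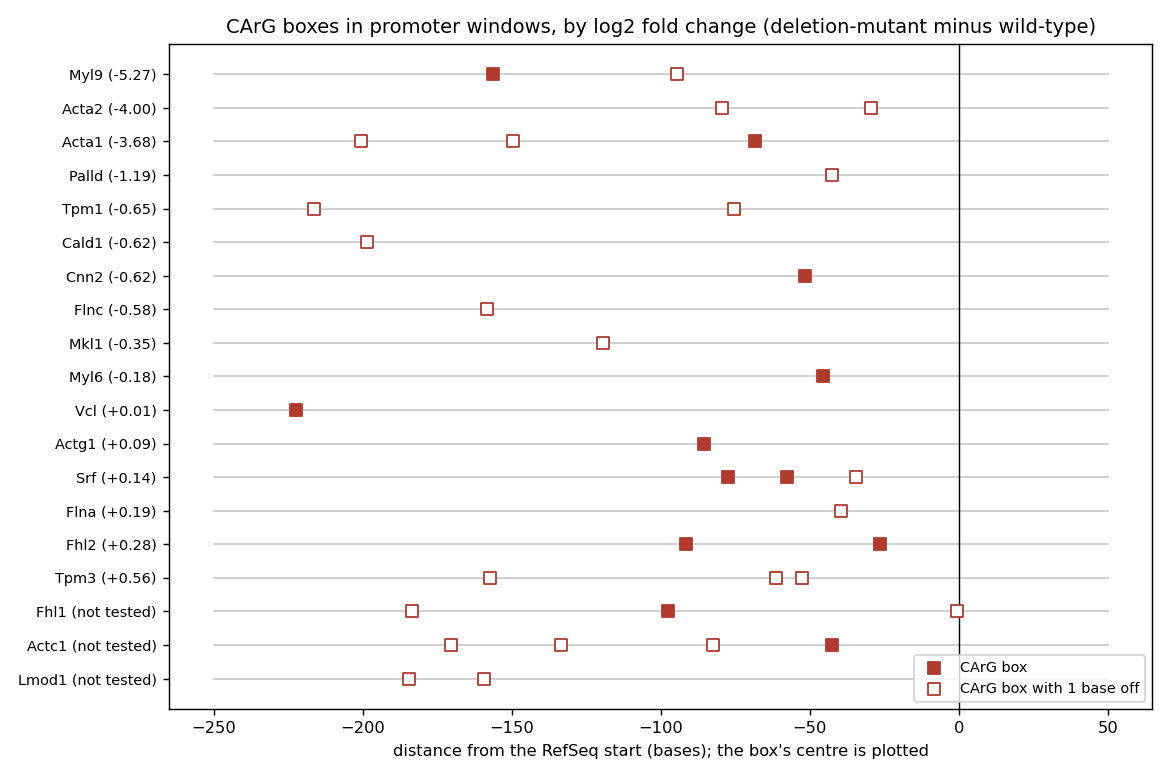
Positions of CArG boxes (filled) and of boxes with 1 base off (open) in the promoter windows of the 19 genes that hold either, with distance from the RefSeq start in bases on the x axis and genes ordered by log2 fold change, deletion-mutant minus wild-type. Exact boxes occur in genes across the order, from Myl9 at -5.27 to Fhl2 at 0.28; all annotated starts of a gene share a line.

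The question was whether smooth muscle isoforms and general isoforms of the same or related proteins differed in the same way between cells with deletion-mutant and wild-type EGFR. Acta2, Myl9, Tagln and Acta1 were lower in deletion-mutant cells by 4.71-fold to 38.5-fold, while no general isoform changed by 2-fold by its brightest probe. Of the 42 genes, 37 could be tested and 24 of these (64.9%) passed an adjusted p of 0.05, against 58.8% of all 18093 features, so that passing the test by itself does not set these genes apart. By size of change, 8 of 37 (21.6%) passed and were at least 2-fold lower, against 7.46% of all features. Of these 8, Actg2, Cnn1 and Synpo2 were kept only through wild-type cells, where they had to be brighter. Among genes above background on all 4 arrays, the count was 5 of 34 (14.7%), against 4.89% of 16572 features, and 11 of 34 were lower at any size, against 23.6%. By its brightest probe, none of the 37 was at least 2-fold higher, against 5.94% of all features. Altogether 14 were lower (24.2% of all features) and 10 higher (34.6% of all features). The arrays of the groups did not overlap for 35 of the 37 genes, compared with 81.7% of all features. The median log2 fold change was -0.034 over these genes and 0.07 over all features.

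**Figure D2:**
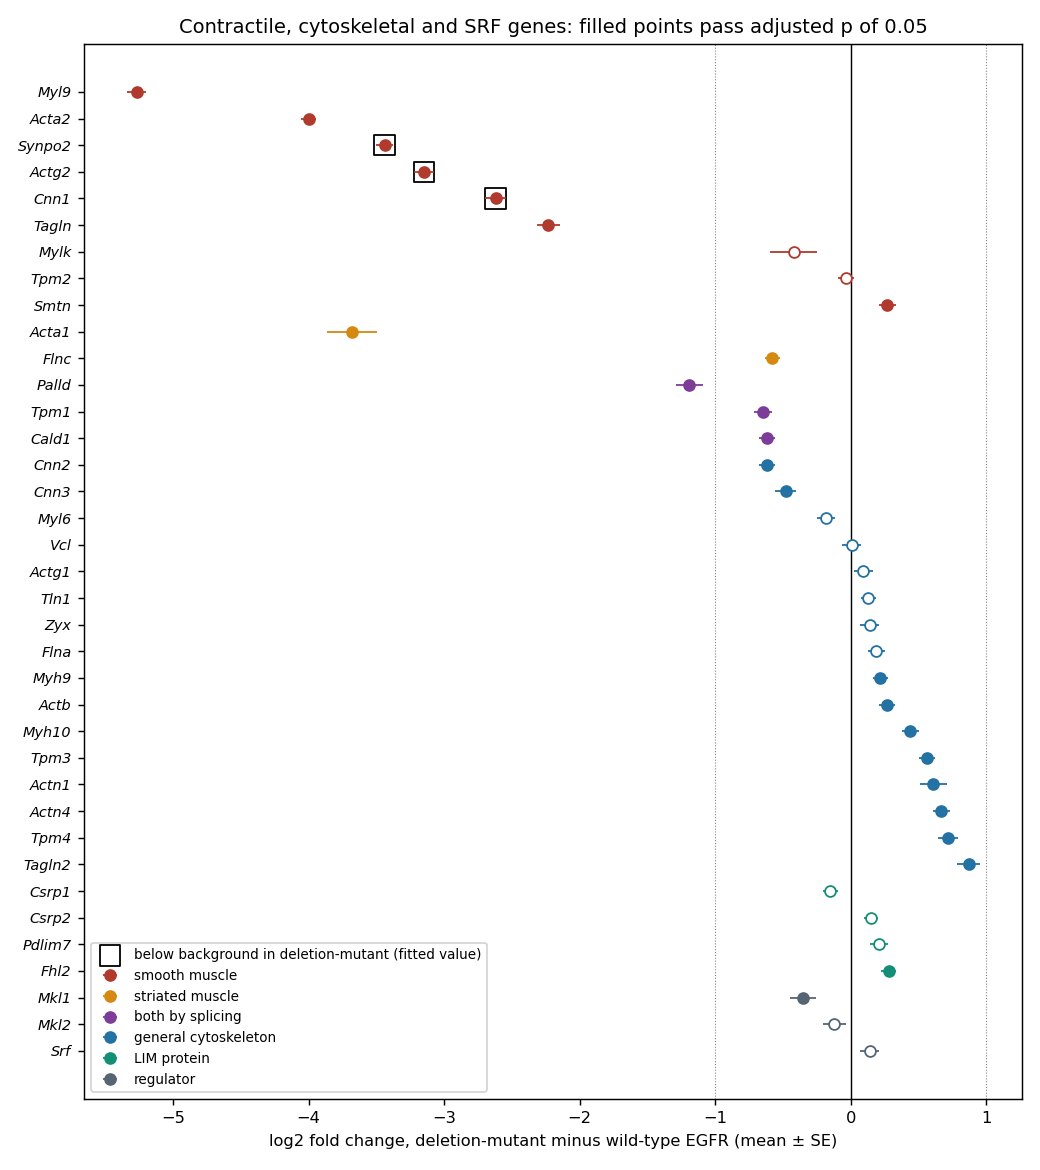
Log2 fold change of the 37 tested genes, deletion-mutant minus wild-type EGFR, with the standard error from limma (n = 2 arrays per group), by class; filled points pass an adjusted p of 0.05, squares mark genes below background in deletion-mutant cells, and dotted lines mark 2-fold. The falls beyond 2-fold all belong to smooth muscle and striated muscle genes and Palld, and the general cytoskeleton genes lie between -0.62 and 0.87.

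Of the smooth muscle isoforms above background on all 4 arrays, 3 of 6 fell, each by more than 2-fold, 1 rose and 2 did not pass. Their median log2 fold change was -1.33. Of all features under this same filter, 23.6% were lower and 4.89% at least 2-fold lower. A further 3 were above background in wild-type cells alone, which brings the lower ones to 6 of 9 (24.2% of all 18093 features). Acta2, the smooth muscle actin that marks activated fibroblasts, had levels of 2.26 and 2.23 in deletion-mutant cells, against 6.21 and 6.27 in wild-type cells. This is a signal of 1561 and 1649 intensity units in deletion-mutant cells, against 25527 and 28194 in wild-type cells. The groups lay far apart, and the deletion-mutant cells still had a clear signal: the fall was 16-fold (log2 fold change -4.00 ± 0.058 SE, limma adjusted p = 0.000146; probe on chromosome 19, 34316060 to 34316119, mm9).

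Myl9, the regulatory light chain through which myosin is switched on in smooth muscle and other cells, fell the most of these genes. Its levels were -2.45 and -2.35 in deletion-mutant cells, against 2.82 and 2.92 in wild-type cells, which is 60 and 69.1 intensity units against 2439 and 2771. All 4 arrays measured it above background, and it was 38.5-fold lower (-5.27 ± 0.072, adjusted p = 0.000146; chromosome 2, 156607301 to 156607360, mm9). With normexp background correction, whose offset compresses dim signals, the log2 fold change was -4.14.

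Tagln, transgelin or SM22, an actin-binding protein of smooth muscle, had 0.93 and 0.85 in deletion-mutant and 3.20 and 3.04 in wild-type cells. It was well measured on every array and fell 4.71-fold (-2.23 ± 0.082, adjusted p = 0.000339). For 3 further genes only a bound can be given, since they were above background in wild-type cells alone. Cnn1, the calponin of differentiated smooth muscle, had 16.2 and 18.5 intensity units in deletion-mutant cells, against 103 and 121 in wild-type cells, and was at least 3.32-fold lower (adjusted p = 0.000257). Synpo2, an actin-bundling protein of the Z-disc and of stress fibres, had 7.48 and 7.62 units in deletion-mutant and 84.9 and 87.2 in wild-type cells, and was at least 2.57-fold lower by the only kept probe of 3. Actg2, the enteric smooth muscle actin, had 6.89 and 8.18 units in deletion-mutant and 67 and 72.6 in wild-type cells, which bounds its fall at 2.08-fold or more. These 3 genes entered the test only through wild-type cells, and so add no support. In wild-type cells too they were dim, and with normexp their log2 fold changes were -0.93 (Cnn1), -1.01 (Synpo2) and -0.84 (Actg2), each still past the threshold.

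Not every gene of smooth muscle fell. Tpm2, the beta-tropomyosin of muscle and fibroblasts, had 4.28 and 4.36 in deletion-mutant and 4.34 and 4.37 in wild-type cells, with overlapping arrays (-0.034 ± 0.062, adjusted p = 0.663), but it was called lower under quantile normalization (-0.26) and under the percentile of detected probes (-0.23). Smtn, smoothelin, a stress fibre protein of contractile smooth muscle, had 4.16 and 4.20 in deletion-mutant against 3.87 and 3.95 in wild-type cells, a rise of 1.21-fold (adjusted p = 0.0222) that did not pass under those same scalings or without any 1 of the 4 arrays. Mylk, the kinase that phosphorylates myosin light chain, was read differently by its 2 probes. The brighter over the 4 arrays (chromosome 16, 34953958 to 34954017, mm9) gave -3.18 and -2.76 in deletion-mutant and -2.66 and -2.44 in wild-type cells and did not pass (-0.42 ± 0.173, adjusted p = 0.101). It was called lower under the percentile of detected probes (-0.62), under the mean of its probes (-0.93) and without deletion-mutant replicate 2 (-0.63), and was at -0.21 without deletion-mutant replicate 1. The other (35001266 to 35001325) had 22.0 and 27.7 units in deletion-mutant cells, not above background, against 56.8 and 86.4 in wild-type cells, and was called lower (adjusted p = 0.00663 over all probes). In wild-type cells this other probe was the brighter, with a mean level of -2.34 against -2.55. Its listed transcript matched RefSeq Mylk, while that of the first probe matched no RefSeq transcript. Whether Mylk fell is thus left undecided by its probes. Myh11, the smooth muscle myosin heavy chain, Lmod1, a leiomodin that nucleates actin in muscle, and Des, the muscle intermediate filament desmin, had 5.41 to 10 intensity units on all arrays and were not tested.

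**Figure D3:**
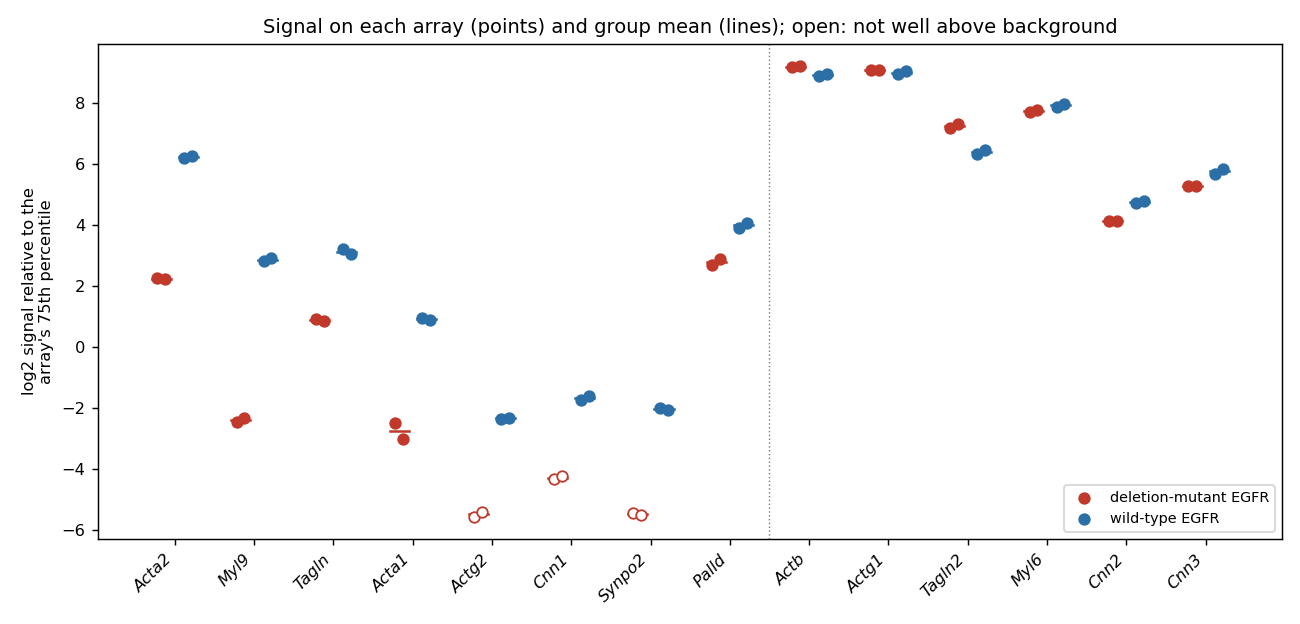
Log2 signal relative to the array's 75th percentile on each of the 4 arrays (points) and group means (lines) for 8 genes that fell at least 2-fold (left of the dotted line) and 6 general isoforms (right). Deletion-mutant points lie below wild-type points by more than the spread within a group for the 8 genes on the left, and the general actins, transgelin 2 and myosin light chain on the right lie within 1 unit of their wild-type level; heights are not comparable between genes.

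Among the actins of striated muscle, Acta1, the skeletal form, fell and Actc1, the cardiac form, was at background (6.15 to 8.52 units on all arrays). Acta1 had -2.49 and -3.01 in deletion-mutant and 0.95 and 0.90 in wild-type cells. The deletion-mutant arrays differed from each other more than for the other genes that fell (SD 0.367), yet the groups lay far apart, at 12.8-fold lower (-3.68 ± 0.188, adjusted p = 0.000597) or -2.26 (log2) with normexp. The actin genes are very similar in coding sequence, and whether the Acta1 probe also reads Acta2 RNA was not tested. Flnc, the muscle filamin that crosslinks actin at Z-discs, had 4.61 and 4.63 in deletion-mutant and 5.19 and 5.22 in wild-type cells, a fall of 1.5-fold (adjusted p = 0.00205).

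The 3 genes classed here as making muscle and non-muscle forms by splicing, Palld, Cald1 and Tpm1, fell by their brightest probe (24.2% of all features were lower). The class does not hold every gene of the list that is spliced in this way, so the count describes these 3 alone. Palld, palladin, which organises actin bundles and rises in activated fibroblasts, had 2.70 and 2.89 in deletion-mutant and 3.92 and 4.06 in wild-type cells, 2.29-fold lower (-1.19 ± 0.098, adjusted p = 0.00148). Cald1, caldesmon, an inhibitor of the actomyosin ATPase, fell 1.53-fold (-0.62 ± 0.060), and its second probe read -0.60. Tpm1, the alpha-tropomyosin gene, is read by 5 probes that split. Its brightest probe (chromosome 9, 66871166 to 66871225, mm9) had 3.21 and 3.25 in deletion-mutant and 3.83 and 3.93 in wild-type cells and was lower (-0.65 ± 0.066, adjusted p = 0.00235). A probe at 66872131 to 66872190 was lower as well (-0.37), probes at 66875796 and at 66875782 did not pass (-0.17 and -0.20), and a probe at 66880274 to 66880333 was higher (0.51, adjusted p = 0.0131 over all probes). Under the mean of its probes Tpm1 did not pass (-0.18). Which splice form each probe reads was not analysed here.

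All 16 general cytoskeleton isoforms were above background on every array. Of these, 8 rose, 2 fell and 6 did not pass (62.5% called, near the 58.8% of all features, of which 34.6% were higher and 24.2% lower). None changed by 2-fold by its brightest probe, and their median log2 fold change was 0.21. The calls of small rises depended on how arrays were scaled: 6 were higher under the percentile of detected probes, 7 under quantile normalization, 11 under spike-in scaling and 12 under median scaling, which shift the median of all features by -0.19, -0.062, 0.081 and 0.18 (log2). Actb, the general beta-actin, had 9.18 and 9.21 in deletion-mutant and 8.90 and 8.95 in wild-type cells, 1.20-fold higher (adjusted p = 0.0191), and did not pass under the percentile of detected probes (0.07) or without any 1 of the 4 arrays. Actg1, the other general actin, had 9.10 on both deletion-mutant arrays and 8.95 and 9.07 in wild-type cells (0.094 ± 0.069, adjusted p = 0.303). Of its 5 probes, 3 at chromosome 11, 120208361 to 120208468 (mm9), rose by 0.48 to 0.51, while the brightest and a probe whose listed position is elsewhere did not pass.

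Tagln2, the transgelin of non-muscle cells, rose the most of the general isoforms, opposite to Tagln. It had 7.20 and 7.32 in deletion-mutant and 6.32 and 6.46 in wild-type cells, 1.83-fold higher (0.87 ± 0.083, adjusted p = 0.00206). Its second probe read 1.11, which is 2.15-fold higher (adjusted p = 0.000906 over all probes). Under median scaling the brightest probe was at 1.05. The tropomyosins Tpm4 (1.65-fold) and Tpm3 (1.47-fold), which stabilise filaments in non-muscle cells, rose, as did the non-muscle actinins Actn4 (1.59-fold) and Actn1 (1.52-fold), which crosslink filaments. The non-muscle myosin heavy chain Myh10 rose 1.36-fold. These 6 rises passed under each of the 5 alternative scalings, Myh10 at 0.25 to 0.62 (log2). Myh9, the other non-muscle myosin heavy chain, had 6.77 and 6.78 in deletion-mutant and 6.54 and 6.56 in wild-type cells (1.17-fold higher, adjusted p = 0.0259), which did not pass under quantile normalization or the percentile of detected probes.

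The general calponins were the members of this class that fell. Cnn2 had 4.14 and 4.12 in deletion-mutant against 4.72 and 4.78 in wild-type cells (1.53-fold lower, adjusted p = 0.00201), and Cnn3 had 5.30 and 5.29 against 5.69 and 5.85 (1.39-fold lower, adjusted p = 0.00851). All kept probes read a fall, 2 for Cnn2 and 3 for Cnn3, although 1 of the Cnn3 probes is listed on the opposite strand from the others. Myl6, the light chain that accompanies non-muscle and smooth muscle myosin, had 7.73 and 7.78 in deletion-mutant and 7.88 and 7.99 in wild-type cells and did not pass (-0.18 ± 0.067, adjusted p = 0.0831). Flna, the general filamin, and the focal adhesion proteins Zyx, Tln1 and Vcl, which link filaments to integrins, did not pass either, with log2 fold changes of 0.19, 0.14, 0.13 and 0.0079. Vcl changed sign between scalings (-0.19 to 0.19).

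Pairs of isoforms or related proteins on the same array give a comparison that no scaling constant can move. Of 15 pairs listed with the other choices, 12 had both genes tested. For 11 of the 12, the within-array difference was lower on both deletion-mutant arrays than on both wild-type arrays. Among single features, arrays did not overlap for 81.7%, counting both directions, and a share for pairs was not worked out. With genes above background on all 4 arrays, the count of lower pairs was 8 of 9. The 11 include Csrp1 minus Csrp2 (-0.29) and Mkl1 minus Mkl2 (-0.23), which do not set a muscle form against a general form, so the sign of their change is set by the order in which they were written. In addition, Myl9 and Myl6 are different light chains, Tpm1 makes both forms by splicing, and Cnn1 stands in both calponin pairs. The 11 are thus not separate comparisons of a muscle form with a general form. With 2 arrays against 2, an exact permutation test (two-sided) cannot go below p = 0.333, which is what these 11 gave. The size of a difference on an array mixes the 2 probes' brightness, so only its change between groups has meaning. Myl9 minus Myl6 was -10.18 and -10.13 in deletion-mutant and -5.06 and -5.07 in wild-type cells, a relative fall of 34.1-fold. Myl9 and Myl6 are different light chains of myosin, so this shift is not between forms of the same protein. Acta2 minus Actb was -6.92 and -6.98 against -2.69 on both wild-type arrays, a relative fall of 19.2-fold. The spread within a group was at most 0.045 for these pairs. Tagln minus Tagln2 was -6.27 and -6.47 in deletion-mutant and -3.12 and -3.42 in wild-type cells, 8.6-fold apart. Actg2 against Actg1 and Cnn1 against Cnn2 and Cnn3 fell by at least 2.22-fold, 2.17-fold and 2.39-fold, bounded by background. With normexp these 3 pairs changed by -0.93, -0.32 and -0.46 (log2), which is less than those bounds.

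Smaller shifts were seen for the tropomyosin and filamin pairs. Tpm1 minus Tpm4 was -3.62 and -3.47 in deletion-mutant and -2.17 and -2.18 in wild-type cells (2.58-fold apart), Flnc minus Flna -2.74 and -2.69 against -1.90 and -1.98 (1.71-fold), and Tpm2 minus Tpm3 -3.24 and -3.15 against -2.58 and -2.62 (1.51-fold). In the last pair Tpm2 itself did not pass, and a second kept probe of Tpm3 (0.098, adjusted p = 0.479 over all probes) did not pass either. The actinin pair, in which both genes are general, did not separate: Actn1 minus Actn4 was -3.66 and -3.56 in deletion-mutant and -3.41 and -3.67 in wild-type cells, with overlapping arrays. With the mean of each gene's probes, the Tpm1 pair was at -0.90 (log2) instead of -1.37, and the Tpm2 pair at -0.37 instead of -0.59.

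**Figure D4:**
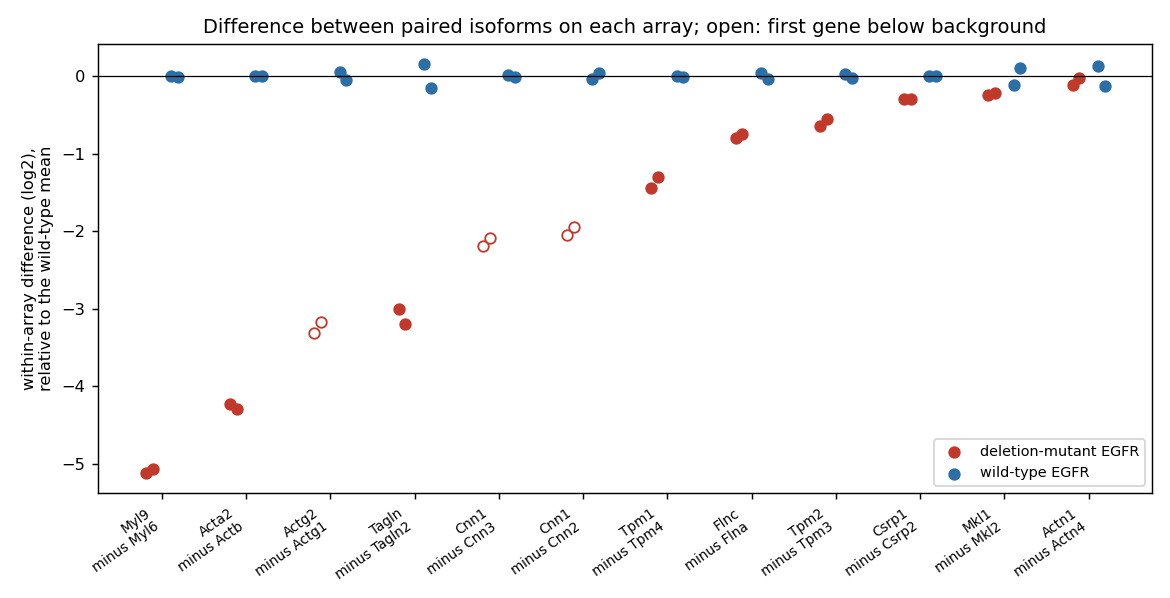
Within-array log2 difference between the genes of 12 pairs on each array, with the wild-type mean of each pair set to 0, for deletion-mutant (left) and wild-type arrays (right of each place); open points mark pairs whose first gene was below background in deletion-mutant cells. The shift reaches -5.09 for Myl9 minus Myl6, which are different light chains of myosin, and -4.26 for Acta2 minus Actb. The arrays of Actn1 minus Actn4 overlap.

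The LIM proteins, adaptors between filaments, adhesions and transcription, changed little. Fhl2, a cofactor that binds SRF and integrins, had 4.95 and 4.98 in deletion-mutant against 4.67 and 4.71 in wild-type cells (1.21-fold higher, adjusted p = 0.0164), and did not pass under quantile normalization, under the percentile of detected probes or without any 1 of the 4 arrays. Csrp1, a LIM protein of smooth muscle, had 5.38 and 5.37 against 5.50 and 5.53 (adjusted p = 0.0828), and Csrp2, its relative in vascular smooth muscle, 6.51 on both deletion-mutant arrays against 6.35 and 6.37 (adjusted p = 0.0797). Neither passed, although the arrays of the groups did not overlap. Pdlim7, the enigma protein of stress fibres, did not pass by its brightest probe (0.21, adjusted p = 0.0518), while its other probes were called in opposite directions: 0.63 at chromosome 13, 55610290 to 55610349, and -0.47 at 55598956 to 55599015 (mm9). Fhl1, a LIM protein of muscle, was not well above background on any array. With every kept probe tested on its own, 18 of the 62 probes of these genes were higher and 22 lower, against 32.6% higher, 24.1% lower and 56.7% called either way of all 25162 kept probes. Of the 17 genes with several kept probes, Tpm1 and Pdlim7 had calls both ways, 10 had the same call for all probes and 5 had a called and an uncalled probe.

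The regulators themselves moved far less than Acta2 or Myl9. Srf had 2.44 and 2.39 in deletion-mutant and 2.22 and 2.33 in wild-type cells and did not pass (0.14 ± 0.068, adjusted p = 0.147), and its second probe was higher (0.34, adjusted p = 0.0116 over all probes). Mkl1, now called Mrtfa, had 4.30 and 4.14 in deletion-mutant against 4.49 and 4.65 in wild-type cells, 1.28-fold lower (adjusted p = 0.034). That call was lost under median and spike-in scaling, although its second probe read -0.51. Mkl2, now called Mrtfb, had 2.97 and 2.80 against 3.03 and 2.98 and did not pass (-0.12 ± 0.083, adjusted p = 0.26). Transcript levels do not report where an MRTF protein lies in the cell.

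**Figure D5:**
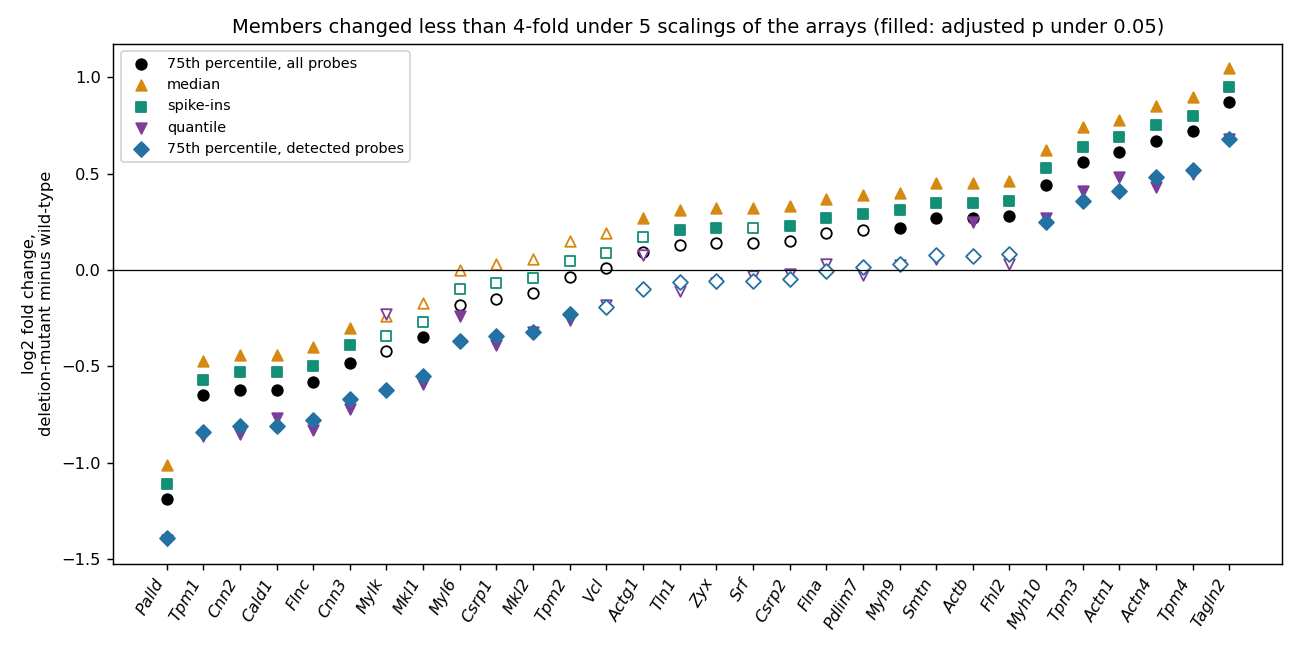
Log2 fold change, deletion-mutant minus wild-type, of the 30 tested genes with a change of less than 2 (log2) under 5 ways of scaling the arrays; filled symbols pass an adjusted p of 0.05. The 6 rises from Myh10 to Tagln2 and the 6 falls from Palld to Cnn3 are filled under all 5, and those in between are filled under some scalings only, for Vcl under none.

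Other genes of the pathway were counted from lists drawn up with earlier results of these data known. Genes linked to SRF with MRTF went both ways: 3 of 11 rose and 4 fell (against 34.6% and 24.2% of all features), with a median log2 fold change of 0.01. The matricellular genes Ctgf (-1.13, adjusted p = 0.000787) and Cyr61 (-0.93, adjusted p = 0.00185), the actin-elongation factor Enah (-0.87) and the nuclear ankyrin protein Ankrd1 (-0.35) fell, while the adhesion protein Pxn (1.52), the fibronectin receptor chain Itga5 (1.02) and Vasp (0.53) rose. Of 9 tested TCFs and genes linked to SRF with TCF, 4 rose (34.6% of all features) and none fell (24.2%) by limma, with 0 lower also at an unadjusted p of 0.05. The 4 were the immediate-early genes Ier2 (1.29) and Egr1 (0.96), the TCF Elk3 (0.93) and the survival gene Mcl1 (0.20). Egr1 had 1931 and 2186 units in deletion-mutant and 1065 and 1148 in wild-type cells. Under the percentile of detected probes, 3 rose and 2 fell. With no background filter, 1 gene of this list was lower. Fos and Egr3, of the same list, were not tested. Fos had 11.1 and 9.46 units in deletion-mutant and 22.0 and 20.1 in wild-type cells, not well above background on any array. Egr3 was above background on 1 wild-type array alone. Which of these genes SRF binds in these cells was not measured.

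By promoter, exact CArG boxes stood in 3 of the 12 genes with a window that fell (Myl9, Acta1 and Cnn2), in 1 of 9 that rose (Fhl2) and in 4 of 12 that did not pass (Actg1, Myl6, Vcl and Srf). Counting boxes with at most 1 base off, the numbers were 9 of 12, 2 of 9 and 5 of 12. Myl9 and Vcl, at -5.27 and 0.0079 (log2), thus both hold an exact box within the window, as the map of boxes by distance shows. Windows for Actg2, Tagln, Myh11, Actb and Csrp2 were not used here, and elements outside the window were not searched.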

How the data were processed

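RNA was measured on 4 one-colour Cy3 arrays of NIH3T3 cells, 2 per group, with groups taken from the labels. Per the file headers, the authors extracted the deposited intensity values with Agilent Feature Extraction 10.10.1.1 (protocol GE1_1010_Sep10), and probe positions are on mm9. The deposited log2 table equals log2 of these intensities plus a constant per array for 99.4% to 99.5% of probes within 0.01 and was an alternative; no header states how these constants were set. Control and outlier spots were left out, spots of a probe were averaged on the log2 scale, and each array's 75th percentile was subtracted. A feature was kept if its probe was well above background on both arrays of a group, by the flags of the deposited files, and a gene was represented by its brightest kept probe. All 18093 features were fitted with limma 3.58.1 in R 4.3.3 with Benjamini-Hochberg adjustment and a threshold of 0.05, on 2 residual and 2.18 prior degrees of freedom, a small number that limits precision. A fold is a bound where a group was not above background: the brighter mean against the lowest signal well above background on each array or the probe's own, whichever is higher. The genes, lists and pairs were chosen with earlier results of these data known, and every gene of the list is named. A further list of genes of the pathway is not reported here.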

Additional observations from a re-analysis of the deposited data

How the results depend on the processing

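The falls of Acta2, Myl9, Tagln, Acta1, Palld, Flnc, Cnn2, Cnn3, Cald1 and Tpm1 passed under every scaling tried. So did those of Actg2, Cnn1 and Synpo2, which were at background in deletion-mutant cells. The rises of Tagln2, Tpm3, Tpm4, Actn4, Actn1 and Myh10 passed under every scaling as well. With no background filter, Cnn3, Actn1 and Myh10 did not pass, and Tpm1 did not under the mean of its probes. Against 10 genes higher, there were 17 under median scaling and with the authors' log2 values, 6 under the percentile of detected probes, 4 with no background filter and 6 leaving out any 1 array. The 8 genes changed at least 2-fold became 5 when a probe had to be above background on all 4 arrays, and the 6 lower smooth muscle isoforms became 3. With no filter, 4 general isoforms were higher and 1 lower, against 8 and 2, and 16 genes passed in all, against 24. The smooth muscle median minus the general median was -2.83. It was -1.14 with normexp, -2.51 with quantile normalization, -1.54 with no filter and with the filter on all 4 arrays, and -2.91 with the mean of probes. The -2.83 uses fitted values of Actg2, Cnn1 and Synpo2, which were below background in deletion-mutant cells. With bounds in their place, the smooth muscle median was -1.36 instead of -2.62, beside a general median of 0.21. Of these settings, the filter on all 4 arrays leaves fewer genes. No filter adds Myh11, Lmod1 and Des, which were not well above background on any array. For the other settings the cause was not tested.

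With trend and robust settings 31 genes passed. Without deletion-mutant replicate 1, Smtn, Actb, Myh9 and Fhl2 did not pass, and without any other array these and Mkl1 did not, while Mylk passed without deletion-mutant replicate 2; 19 to 20 genes then passed. The fit with replicate number as a block gave 23 calls, without Myh9 and Mkl1 and with Mylk; same-numbered arrays shared deviations with a correlation of 0.0472, so the number does not pair them. Calls over all features were higher in 58.9% of cases, and in 51.1% under quantile normalization, 73.5% under median scaling and with the authors' values, 38.9% under the percentile of detected probes and 65.8% with spike-ins.

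Signs turned only for values past no threshold in either setting. Under median scaling, Tpm2 was 0.15, Myl6 0.0018, Csrp1 0.033 and Mkl2 0.055, and with the authors' values 0.15, 0.0027, 0.034 and 0.056. Under spike-ins Tpm2 was 0.047. Under quantile normalization, Vcl was -0.18, Zyx -0.069, Tln1 -0.11, Pdlim7 -0.027, Csrp2 -0.02, Srf -0.032 and the pair Actn1 minus Actn4 0.055. Under the percentile of detected probes, Actg1 was -0.1, Flna -0.0031, Vcl -0.19, Zyx -0.055, Tln1 -0.061, Csrp2 -0.046 and Srf -0.055. Vcl was -0.0024 with normexp and -0.044 with the mean of probes. Leaving out an array, Tpm2 ranged over -0.074 to 0.0062, Vcl over -0.052 to 0.068 and Actn1 minus Actn4 over -0.2 to 0.067, with signs turned without deletion-mutant replicate 1 (Tpm2, and Vcl at -0.0051) and wild-type replicate 1 (Vcl and the pair). Signal near background limits Actg2, Cnn1, Synpo2 and Mylk. It also limits the size of the falls of Myl9 and Acta1, which were above background but dim in deletion-mutant cells (60 and 69.1 units, and 58.1 and 43.6 units). With normexp their log2 fold changes were -4.14 and -2.26, instead of -5.27 and -3.68.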

Other observations

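Elk1, a ternary complex factor that partners SRF, had 2 probes on the X chromosome that differed widely in brightness. The probe at 20510521 to 20510580 (mm9) had 176210 and 191148 intensity units in deletion-mutant and 198642 and 210673 in wild-type cells. The probe at 20512461 to 20512520 had 67.1 and 84.1 units in deletion-mutant and 76.1 and 54.5 in wild-type cells. Neither passed the test between groups.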
